A study of Mus musculus with 21 samples.

Results

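Guanylate-binding proteins (GBPs) and immunity-related GTPases (IRGs) were followed in mouse dendritic cells that lack RelB, or both c-Rel and RelB, through 8 genes: Gbp2, Gbp3, Gbp5, Igtp, Irgm1, Irgm2, Iigp1 and Ifi47. Their probes were found by gene name alone. The array holds 14 probes for these 8 genes, out of 25697 probes and 16593 named genes. Gbp2 and Irgm1 had 3 probes each, Gbp3 and Iigp1 had 2 each and the other 4 genes had 1. The cells were dendritic cells grown from bone marrow of C57Bl6 mice, of the genotypes relb-/-, crel-/-relb-/- and wild type (WT). Both mutant genotypes lack RelB, and crel-/-relb-/- cells lack c-Rel as well. Each genotype was measured unstimulated at 0 h, after 1, 8 and 24 h with the TLR9 agonist CpG DNA, and after 1, 8 and 24 h with Pam3CSK4, a lipopeptide that activates TLR2 with TLR1. That gives 21 arrays, 7 per genotype, and 1 array for each genotype in each condition. No condition has a replicate, and neither the animals, their age nor the cultures behind the arrays were known from the labels. Each genotype test below therefore asks how steady a difference was over conditions. Tests of time or agent ask how steady a difference was over genotypes. No test says anything of the spread between animals.

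Interferons switch on the GBP and IRG genes, and interferon-γ is the classical inducer. The GBPs are large, dynamin-like GTPases that gather on vacuoles and membranes of intracellular pathogens and help to break them open, and they also promote inflammasome signalling. The IRGs are smaller GTPases of the mouse in 2 kinds: effectors such as Iigp1 (Irga6) and Ifi47 (IRG-47), which can load onto parasite vacuoles, and the regulatory IRGM proteins Irgm1, Irgm2 and Igtp (Irgm3), which sit on host membranes and hold the effectors inactive there. RelB and c-Rel are subunits of NF-kB. RelB is chiefly a subunit of the non-canonical pathway and c-Rel of the canonical one, and both take part in dendritic cell activation, which also leads to type I interferon and, through it, to interferon-stimulated genes.

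The promoters of these genes are shown because the interferon-stimulated response element (ISRE), to which the interferon-activated factor ISGF3 and the IRF factors bind, links them to that pathway. RefSeq windows (build GRCm38.p6) were searched on both strands for the ISRE core (GAAA and GAAA with any 2 bases between them) and for the NF-kB consensus. In the lines that follow, each window runs from 180 bases before to 50 bases after the annotated start, 5′ to 3′ on the gene's own strand, and capitals mark the ISRE core or its reverse complement.
Gbp2, chr3:142620483-142620712, plus strand: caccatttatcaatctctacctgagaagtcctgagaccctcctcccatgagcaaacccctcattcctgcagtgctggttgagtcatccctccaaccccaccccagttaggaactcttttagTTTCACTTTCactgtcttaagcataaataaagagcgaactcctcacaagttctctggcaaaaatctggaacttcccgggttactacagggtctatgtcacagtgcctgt
Gbp3, chr3:142559864-142560093, plus strand: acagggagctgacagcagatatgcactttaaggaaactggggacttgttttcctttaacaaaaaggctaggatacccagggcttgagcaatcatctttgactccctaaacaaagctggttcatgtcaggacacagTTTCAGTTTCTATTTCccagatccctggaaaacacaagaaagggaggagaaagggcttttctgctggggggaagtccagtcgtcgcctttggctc
Gbp5, chr3:142496754-142496983, plus strand: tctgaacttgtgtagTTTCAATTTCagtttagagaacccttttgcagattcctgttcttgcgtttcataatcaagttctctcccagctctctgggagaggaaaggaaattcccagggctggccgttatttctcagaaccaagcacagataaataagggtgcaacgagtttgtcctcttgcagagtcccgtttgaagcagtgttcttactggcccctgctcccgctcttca
Igtp, chr11:58199376-58199605, plus strand: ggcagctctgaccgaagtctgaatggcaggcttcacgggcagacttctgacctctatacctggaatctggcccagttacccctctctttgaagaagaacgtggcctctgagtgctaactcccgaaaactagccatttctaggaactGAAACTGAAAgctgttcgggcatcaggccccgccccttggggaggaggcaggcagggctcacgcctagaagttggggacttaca
Irgm2, chr11:58214797-58215026, plus strand: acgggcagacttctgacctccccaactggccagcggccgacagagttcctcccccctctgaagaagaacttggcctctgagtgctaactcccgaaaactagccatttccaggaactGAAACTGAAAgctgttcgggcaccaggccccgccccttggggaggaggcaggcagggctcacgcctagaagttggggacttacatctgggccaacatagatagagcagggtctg
Irgm1, chr11:48871371-48871600, minus strand: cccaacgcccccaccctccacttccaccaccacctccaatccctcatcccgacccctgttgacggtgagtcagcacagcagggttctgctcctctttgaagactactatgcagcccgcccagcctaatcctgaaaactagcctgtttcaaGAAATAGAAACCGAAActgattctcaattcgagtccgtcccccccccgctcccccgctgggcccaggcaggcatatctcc

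An ISRE core lay in the window of 6 of the 7 genes searched, and in 6 of their 8 windows, against 3.44% of all 32851 windows. The windows searched reached further before the start than the printed stretches. Iigp1 was not searched. In Gbp3 and in Irgm1 a pair of cores overlapped. The cores began 59 bases before the start in Gbp2, 34 in Igtp, 64 in Irgm2 and 165 in Gbp5, and the first of the overlapping pair began 45 bases before it in Gbp3 and 30 in Irgm1. The window of Ifi47 and a second window of Gbp3 held none. An NF-kB consensus was found in Gbp5 and Gbp2 (8.46% of all windows hold one). The windows of Igtp and Irgm2, which are neighbours on chromosome 11, shared an unbroken stretch of 61 bases. That stretch begins after the ISRE core and does not include it. Gbp2, Gbp3 and Gbp5 lie together on chromosome 3, and Irgm1 and Ifi47 on chromosome 11. A match is a description of the letters and not evidence of binding, and the 7 genes were not chosen at random.

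The values are the authors' normalized intensities, and the median of all values on the array was 47.3. A gene was tested if its 3rd highest value over the 21 arrays lay above that median, which 10587 genes did, among them 7 of these 8. The Rel probe read 33.6 to 45.5 in crel-/-relb-/- cells, 101 to 214 in relb-/- cells and 61.1 to 206.5 in WT cells, and the Relb probe read 65.9 to 152.7, 60.6 to 179.7 and 148.3 to 267 in relb-/-, crel-/-relb-/- and WT cells. Where the probes lie relative to the deleted sequence is not known here. Of the dendritic cell markers, Cd74 read at least 5804, H2-Ab1 at least 3695 and Itgax at least 166 on every array, and Flt3 did not rise above the median of all values on enough arrays to be tested. One crel-/-relb-/- array, that of 24 h with CpG, lay apart from the rest, with a residual SD of 0.189 on the log2 scale against 0.0966 to 0.141 on the other arrays.

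Unstimulated cells of each genotype already read above the median of all values for 7 of the 8 GTPases, Iigp1 being the exception. The 2 probes of Iigp1, an effector that disrupts vacuoles of Toxoplasma, read 35.2 to 46.4 and lay below the median of all values on all 21 arrays. Iigp1 was therefore not tested and has no measured direction. In unstimulated cells Gbp2, a GBP known for coating Toxoplasma vacuoles, read 3166 in relb-/-, 1252 in crel-/-relb-/- and 3538 in WT cells. Irgm1, which is required for resistance to mycobacteria in mice, read 2992, 2619 and 2192 in the same order. The other 5 tested genes lay between 63.2 and 632. Probes differ in how strongly they bind, so these levels do not rank the genes. For 6 of the 7 genes the unstimulated relb-/- array read above the WT array on the brightest probe, Gbp2 being the other. For 6 of 7 the unstimulated crel-/-relb-/- array read below the WT array on that probe, Irgm1 being the other.

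**Figure D1:**
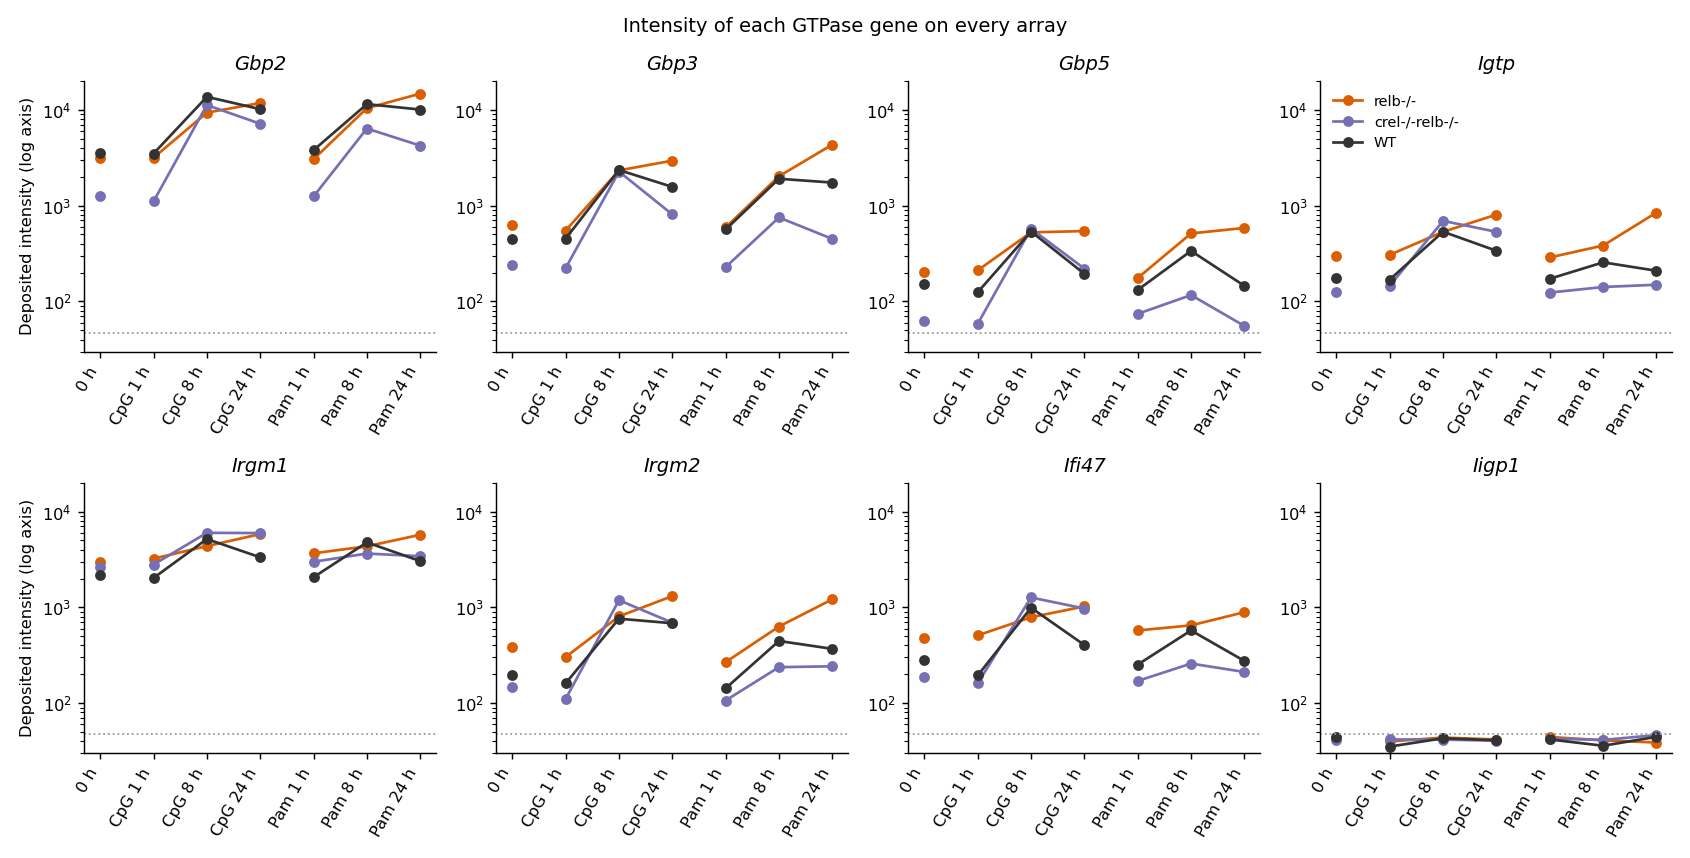
Deposited intensity (log axis) of the probe that stands for each GTPase gene, by condition, with 1 point per array; lines join 1, 8 and 24 h of an agent (Pam is Pam3CSK4) and the dotted line is the median of all values, 47.3. Gbp3 at 24 h with Pam3CSK4 read 4338 in relb-/-, 449.9 in crel-/-relb-/- and 1742 in WT cells, and the 7 tested genes were raised at 8 h in the fit over both agents and all genotypes, whereas Iigp1 stayed below the dotted line.

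All 7 tested GTPases were raised 8 h after stimulation, none at 1 h, and 5 of the 7 at 24 h. A gene was called where limma's adjusted p was under 0.05. At 1 h, 0 of 7 genes were called by limma in either direction, where 1.11% of all genes were, and 0 of 7 had an unadjusted p under 0.05. At 8 h against 0 h, over both agents and all genotypes, 7 of 7 rose, against 15.0% of all genes called higher. Their median log2 rise was 1.43, against 0.00 over all genes. Of the GBPs, Gbp3 rose by 2.16 ± 0.28 (SE, adjusted p = 3.30e-06), Gbp2 by 2.07 ± 0.22 (adjusted p = 2.12e-07) and Gbp5 by 1.62 ± 0.33 (adjusted p = 6.01e-04). Among the IRGM regulators, Irgm2 rose by 1.43 ± 0.26, Igtp by 0.99 ± 0.27 and Irgm1 by 0.85 ± 0.17, and the effector Ifi47 rose by 1.20 ± 0.33. With the most variable probe of each gene in place of the brightest, Irgm1 rose by 1.64 at 8 h (adjusted p = 4.21e-05) and 1.43 at 24 h (adjusted p = 1.89e-04). At 24 h against 0 h, 5 of 7 rose, against 16.9% of all genes. Those 5 were Gbp3 (1.91), Gbp2 (1.90), Irgm2 (1.50), Igtp (1.07) and Irgm1 (0.76). Gbp5 at 0.81 ± 0.33 (adjusted p = 0.068) and Ifi47 at 0.84 ± 0.33 (adjusted p = 0.060) missed the threshold at 24 h. Both agents share the unstimulated arrays. With the condition CpG 8 h left out 5 genes were called at 8 h and 7 at 24 h, and with Pam3CSK4 24 h left out 7 were called at 24 h.

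GTPase intensities were higher in relb-/- than in WT cells for most of the genes, including all 4 tested IRGs. Over the 7 conditions 5 of 7 genes were called higher in relb-/- cells and none lower, where 6.03% of all genes were called higher and 5.65% lower. The median log2 difference of the 7 was 0.81, against -0.01 over all genes. The 3 IRGM regulators and Ifi47 were all among those called, and of the GBPs Gbp5 was.

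Igtp is an IRGM regulator found on the endoplasmic reticulum and lipid droplets. In relb-/- cells Igtp read 300.2 unstimulated, 307, 533 and 806 at 1, 8 and 24 h with CpG, and 288, 383 and 848 at 1, 8 and 24 h with Pam3CSK4. In WT cells it read 177 unstimulated, 169, 534 and 338 at 1, 8 and 24 h with CpG, and 172, 256 and 209 at 1, 8 and 24 h with Pam3CSK4. The relb-/- array was the higher one in 6 of 7 conditions, and at 8 h with CpG the pair read 533 and 534. The ranges of both genotypes overlapped for every tested GTPase once conditions were pooled, and these ranges also hold the changes with stimulation. The share of all genes whose ranges overlap was not computed. The fitted log2 difference of Igtp was 0.89 ± 0.21 (adjusted p = 0.0073).

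Irgm2, a regulator that also restrains caspase-11 activation in the mouse, was higher in relb-/- than in WT cells in 7 of 7 conditions, by 0.86 ± 0.20 (adjusted p = 0.0060). It read 389.6 in relb-/- against 198 in WT cells unstimulated, and 1213 against 369 at 24 h with Pam3CSK4. Ifi47 was higher by 0.89 ± 0.25 (adjusted p = 0.024), in 6 of 7 conditions. At 1 h with CpG it read 510.0 in relb-/- and 194 in WT cells, and at 8 h with CpG 789 and 991, the condition in which the order turned. The brightest Irgm1 probe gave 0.47 ± 0.13 (adjusted p = 0.019), and a dimmer Irgm1 probe, ILMN_1234539, gave 1.16 ± 0.20 (adjusted p = 4.86e-04) in a fit of all probes. On that probe the relb-/- array lay above the WT array throughout, from 566 against 204 unstimulated to 1336 against 469.9 at 24 h with Pam3CSK4. The remaining Irgm1 probe stayed near the median of all values, at 34.5 to 70.2.

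The GBPs were less uniform in relb-/- cells. Gbp5, which promotes assembly of the NLRP3 inflammasome, was higher by 0.81 ± 0.25 (adjusted p = 0.040). In relb-/- cells it read 202 unstimulated, 211, 526 and 543 at 1, 8 and 24 h with CpG, and 176, 513 and 585 at 1, 8 and 24 h with Pam3CSK4. In WT cells it read 152 unstimulated, 125, 537 and 194 at 1, 8 and 24 h with CpG, and 132, 337 and 146 at 1, 8 and 24 h with Pam3CSK4. At 24 h WT cells were back near their unstimulated level, and relb-/- cells were not. Gbp3 differed by 0.45 ± 0.21 (adjusted p = 0.18) and Gbp2 by -0.08 ± 0.17 (adjusted p = 0.83), and neither was called. The 95% interval of the Gbp2 difference ran from -0.42 to 0.27. Leaving out 1 condition at a time moved the count of genes called from 5 to 2 without 1 h or 24 h of Pam3CSK4 or 1 h of CpG, and to 3 without the unstimulated arrays.

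**Figure D2:**
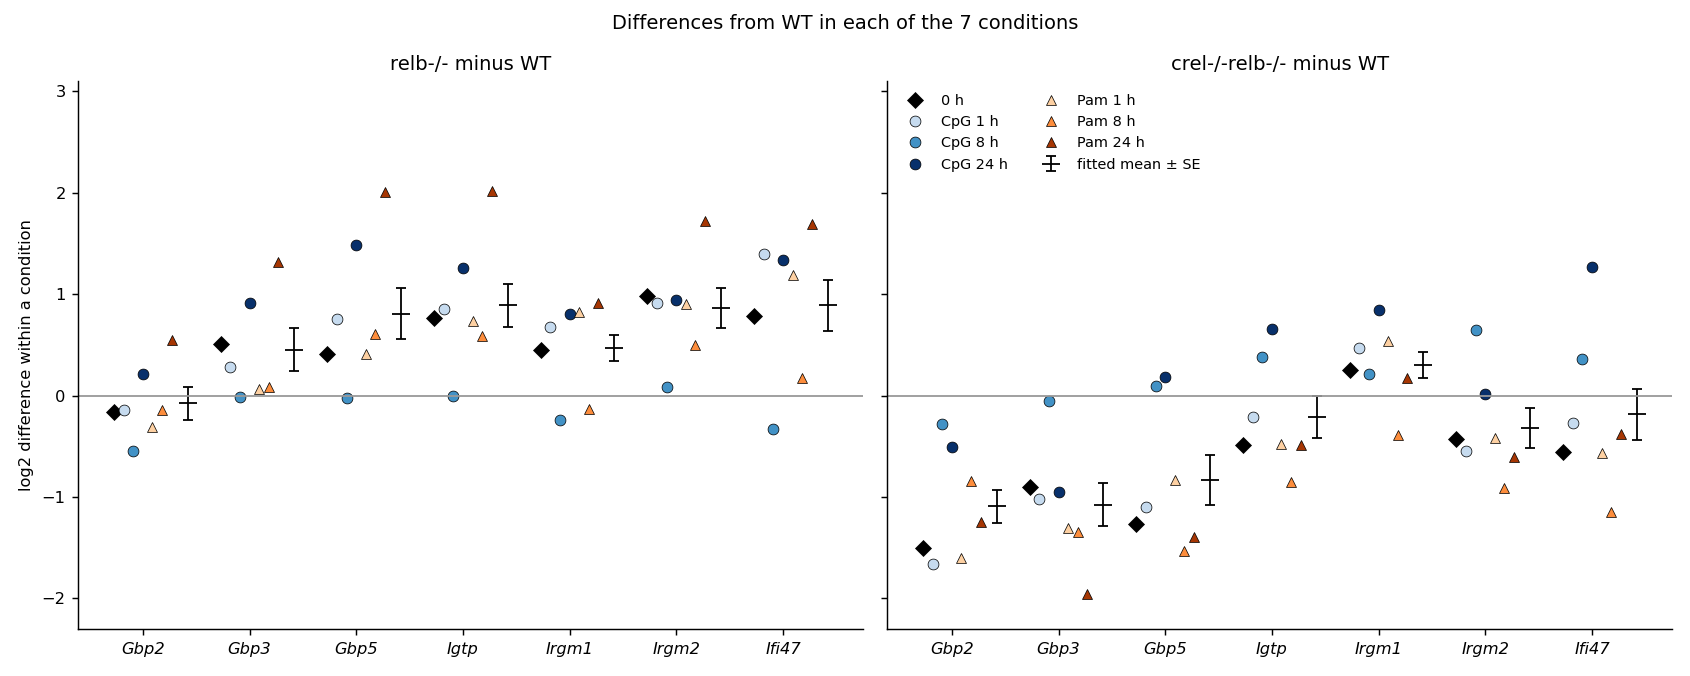
log2 difference from the WT array of the same condition for each tested GTPase gene, relb-/- on the left and crel-/-relb-/- on the right; diamonds are unstimulated cells, circles CpG, triangles Pam3CSK4 (Pam), darker with time, and the bars give the fitted mean ± SE. Igtp and Gbp5 at 24 h with Pam3CSK4 lay 2.02 and 2.01 above WT in relb-/- cells, and Gbp3 in the same condition lay at -1.95 in crel-/-relb-/- cells.

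Without c-Rel as well as RelB, the 3 GBPs lay below WT, and no IRG was called; whether GBPs and IRGs differ from each other was not tested. Relative to WT cells all 3 GBPs were called lower in crel-/-relb-/- cells and 0 of the 7 genes higher, where 7.74% of all genes were called lower and 7.65% higher. The median of the 7 was -0.32, against 0.00 over all genes. In crel-/-relb-/- cells Gbp2 read 1252 unstimulated, 1108, 11234 and 7157 at 1, 8 and 24 h with CpG, and 1247, 6388 and 4235 at 1, 8 and 24 h with Pam3CSK4. In WT cells it read 3538 unstimulated, 3498, 13686 and 10171 at 1, 8 and 24 h with CpG, and 3794, 11478 and 10076 at 1, 8 and 24 h with Pam3CSK4. The crel-/-relb-/- array was the lower one in 7 of 7 conditions, and the log2 difference was -1.09 ± 0.17 (adjusted p = 9.24e-05). The 2 dimmer Gbp2 probes gave -0.40 ± 0.15 (adjusted p = 0.082) and -0.09 ± 0.12 (adjusted p = 0.69) and were not called.

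Gbp3 was lower in 7 of 7 conditions as well, by -1.08 ± 0.21 (adjusted p = 0.0012), and its second probe gave -1.05 ± 0.22 (adjusted p = 0.0025). The crel-/-relb-/- values of Gbp3 were 238 unstimulated, 223, 2270.3 and 810.0 at 1, 8 and 24 h with CpG, and 228, 753 and 449.9 at 1, 8 and 24 h with Pam3CSK4. In WT cells it read 445 unstimulated, 453, 2355 and 1569 at 1, 8 and 24 h with CpG, and 564, 1909 and 1742 at 1, 8 and 24 h with Pam3CSK4. The pair was close at 8 h with CpG and far apart at 24 h with Pam3CSK4. Gbp5 was lower by -0.83 ± 0.25 (adjusted p = 0.027), in 5 of 7 conditions, and read 55.5 in crel-/-relb-/- against 146 in WT cells at 24 h with Pam3CSK4.

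The IRGs in crel-/-relb-/- cells had fitted differences from WT of -0.32 ± 0.20 for Irgm2 (adjusted p = 0.30), -0.21 ± 0.21 for Igtp (adjusted p = 0.55), -0.19 ± 0.25 for Ifi47 (adjusted p = 0.68) and 0.30 ± 0.13 for Irgm1 (adjusted p = 0.12). Their 95% intervals reached from -0.73 to 0.09 for Irgm2, from -0.64 to 0.22 for Igtp, from -0.71 to 0.34 for Ifi47 and from 0.04 to 0.56 for Irgm1. Irgm2, Igtp and Ifi47 were each below WT in 5 of 7 conditions, and above it in both late conditions with CpG. Irgm1, on its brightest probe, was below WT in 1 of 7. Over the 18 settings tried, which include another choice of probe, its fitted difference ran from -0.19 to 0.41. Its direction against WT is therefore not settled. Without the array that lay apart the same 3 genes were called, with Gbp2 at -1.17, Gbp3 at -1.06 and Gbp5 at -0.95. Leaving out 1 condition at a time gave 2 to 4 calls. Gbp2 and Gbp3 were called in each of the 18 settings tried and Gbp5 in 14.

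Set against each other, the mutant genotypes differed in 6 of the 7 GTPases, all lower in crel-/-relb-/- than in relb-/- cells, where 9.28% of all genes were called lower and 10.5% higher. The log2 differences were -1.64 for Gbp5, -1.53 for Gbp3, -1.18 for Irgm2, -1.10 for Igtp, -1.08 for Ifi47 and -1.02 for Gbp2, with adjusted p-values of 2.45e-05 to 0.0040. This comparison shares its arrays with both comparisons against WT. The count was 6 under each condition left out. Irgm1 differed by -0.17 ± 0.13 (adjusted p = 0.39) on its brightest probe and by -1.35 ± 0.20 (adjusted p = 4.40e-05) on ILMN_1234539, so for Irgm1 the call turns on the probe.

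The values of the 8 and 24 h arrays stood in another order in relb-/- cells. In relb-/- cells all 7 genes read higher at 24 h than at 8 h with both agents, and in WT cells 0 of 7 did with either. For crel-/-relb-/- cells this held for 0 of 7 with CpG and 2 of 7 with Pam3CSK4. Each such order rests on 1 array per time, shared by all 7 genes. Relative to the unstimulated array of the same genotype, the median log2 change of the 7 genes with Pam3CSK4 was 0.69 at 8 h and 1.53 at 24 h in relb-/- cells, 0.69 and 0.39 in crel-/-relb-/- cells, and 1.14 and 0.47 in WT cells. With CpG it was 1.05 and 1.43 in relb-/- cells, 3.01 and 2.08 in crel-/-relb-/- cells, and 1.83 and 0.94 in WT cells. As 1 example, Gbp5 at 24 h with Pam3CSK4 stood at 2.89 times its unstimulated level in relb-/- cells, 0.88 times in crel-/-relb-/- cells and 0.96 times in WT cells.

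**Figure D3:**
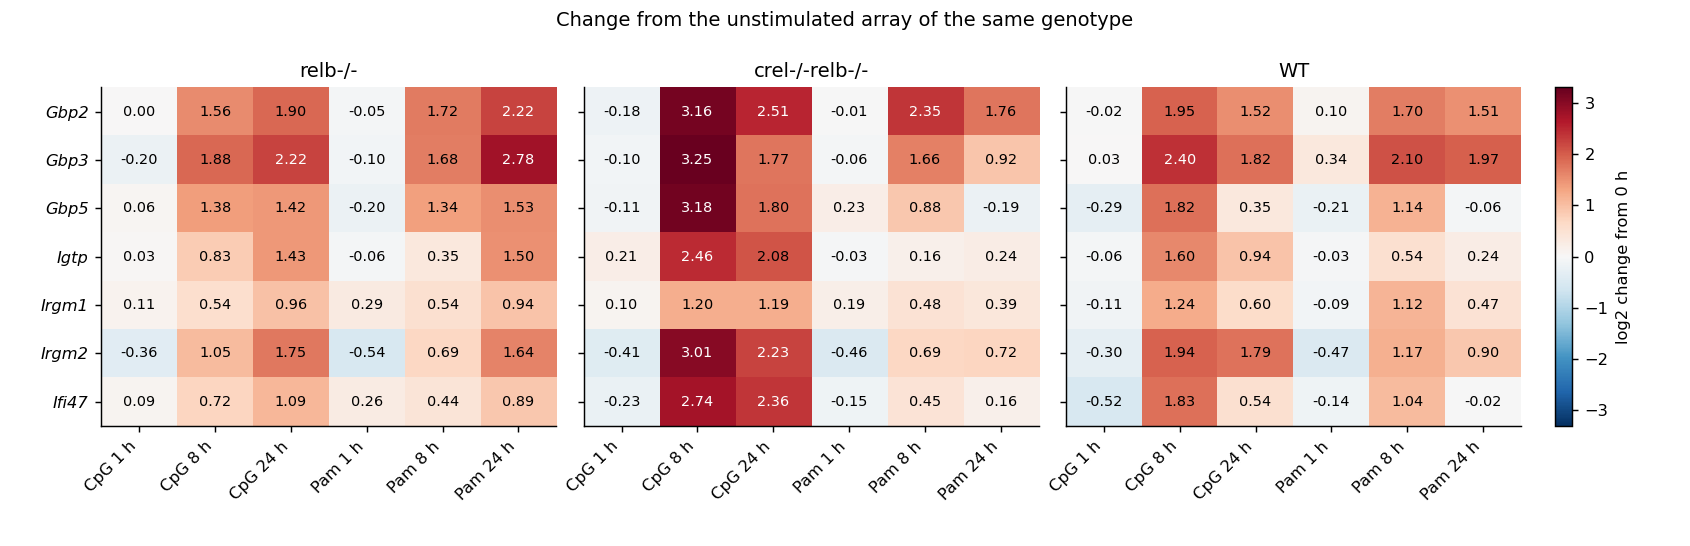
log2 change of each tested GTPase gene from the unstimulated array of its own genotype, by agent (Pam is Pam3CSK4) and time; each cell is 1 array against 1 array. The crel-/-relb-/- panel has its largest values at 8 h with CpG (3.25 for Gbp3), and the relb-/- panel at 24 h with Pam3CSK4 (2.78 for Gbp3).

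The genotype difference was therefore read separately at early times (0 and 1 h, 3 conditions) and late times (8 and 24 h, 4 conditions). In relb-/- against WT cells 0 of 7 genes were called at early times, where 2.21% of all genes were called higher, although 4 of 7 had an unadjusted p under 0.05 and the largest difference was 1.12 ± 0.37 for Ifi47 (adjusted p = 0.10). At late times Igtp alone was called, at 0.96 ± 0.28 (adjusted p = 0.043), with 3.51% of all genes called higher. That call was lost when any single condition other than CpG 8 h was left out, early ones included. Without CpG 8 h, 5 genes were called. Of the 7 genes 1 was called lower at early times in crel-/-relb-/- cells, set against WT, Gbp2 at -1.59 ± 0.21 (adjusted p = 7.57e-05), where 3.18% of all genes were. Gbp2 and Gbp3 were called lower at late times, at -0.72 and -1.08, where 5.24% of all genes were. Between the mutants at late times, 5 of 7 were lower in crel-/-relb-/- than in relb-/- cells (7.25% of all genes), Irgm1 and Ifi47 being the others.

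The difference between early and late times was tested itself and called no GTPase. It was called for 0 of 7 genes in relb-/- against WT (0.170% of all genes, 0 of 7 with an unadjusted p under 0.05) and 0 of 7 in crel-/-relb-/- against WT (0.378% of all genes, 1 of 7 with an unadjusted p under 0.05). That 1 was Gbp2, at 0.87 ± 0.28 (adjusted p = 0.24), its fitted deficit in crel-/-relb-/- cells being larger early than late. A comparison of the change between 8 and 24 h was added after the values had been seen. In relb-/- minus WT cells it lay above 0 for 7 of 7 genes with a median of 1.08, the largest being 1.59 ± 0.63 for Ifi47 (adjusted p = 0.70) and the smallest adjusted p being 0.37 for Irgm1 at 1.05 ± 0.28. It was called by limma for 0 of 7 genes and for 0.00945% of all genes, with 5 of 7 at an unadjusted p under 0.05. For crel-/-relb-/- minus WT cells it was called for 0 of 7 (0.0661% of all genes), with 0 of 7 at an unadjusted p under 0.05 and a median of 0.11. The model has 4 residual degrees of freedom.

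CpG and Pam3CSK4 were compared over 3 genotypes and 3 times. Igtp was higher with CpG than with Pam3CSK4 by 0.73 ± 0.18 (adjusted p = 0.040) and Irgm2 by 0.71 ± 0.17 (adjusted p = 0.035), so 2 of 7 were called, against 0.916% of all genes called higher. All 7 differences lay above 0, and 4 of 7 had an unadjusted p under 0.05. The calls hang on single conditions: without the crel-/-relb-/- array that lay apart Igtp was at 0.64 (adjusted p = 0.080) and Irgm2 at 0.67 (adjusted p = 0.067), and 0 of 7 were called. Counts of 0 to 3 were obtained with 1 condition left out.

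In crel-/-relb-/- cells the arrays of the agents read far apart. At 8 h, 5 of 7 genes were above WT with CpG in crel-/-relb-/- cells and 0 of 7 with Pam3CSK4. Ifi47 at 8 h read 1268 with CpG and 259 with Pam3CSK4 in crel-/-relb-/- cells, against 991 and 574 in WT cells. Irgm2 at 8 h read 1188 and 238 in crel-/-relb-/- cells, against 761 and 446 in WT cells. The test of that difference called no GTPase. Over the 18 stimulated arrays, the CpG minus Pam3CSK4 difference in the genotype effect was called for 0 of 7 genes and 0% of all genes in crel-/-relb-/- cells, and likewise for 0 of 7 and 0% in relb-/- cells. The crel-/-relb-/- values lay above 0 for 7 of 7 genes with a median of 0.86, and 2 of 7 had an unadjusted p under 0.05. In relb-/- cells it lay above 0 for 0 of 7, with a median of -0.22 and 0 of 7 at an unadjusted p under 0.05. In the 12 late arrays alone, a fit added after the values had been seen, the median in crel-/-relb-/- cells was 1.14. It was led by Gbp5 at 1.60 ± 0.50 and Ifi47 at 1.58 ± 0.49 (both adjusted p = 0.94), with 4 of 7 at an unadjusted p under 0.05, 0 of 7 called and 0% of all genes called. In relb-/- cells that fit gave a median of -0.43, with 0 of 7 at an unadjusted p under 0.05.

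Among other interferon-linked genes, the type I interferon-leaning targets were higher in relb-/- cells throughout, and none was called in crel-/-relb-/- cells. In relb-/- against WT cells 14 of 14 of them were higher, with a median of 1.52, where 6.03% of all genes were called higher. They were led by the antiviral genes Ifit3 (2.59), Oasl1 (2.51), Rsad2 (2.35) and Ifit2 (2.25). Against WT, crel-/-relb-/- cells had 0 of 14 called, with a median of 0.15, where 7.65% of all genes were higher and 7.74% lower. Between crel-/-relb-/- and relb-/- cells 12 of 14 were lower in crel-/-relb-/- cells, where 9.28% of all genes were. Interferon-γ-leaning targets, which include the immunoproteasome and peptide transport genes, gave other counts: 1 of 15 was higher and 3 lower in relb-/- cells, where 6.03% of all genes were higher and 5.65% lower (Fcgr1 at 0.45; Cxcl9, Wars and Ido1 at -0.49 to -0.29), and 0 were higher and 7 lower in crel-/-relb-/- cells (7.65% and 7.74% of all genes), led by Wars (-0.80), Tapbpl (-0.58), Psmb10 (-0.54) and Psmb9 (-0.50). These lists, like the GTPases, were chosen with earlier results of the arrays known, so the counts describe and do not test them.

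Interferon signalling genes were more often higher than lower in relb-/- cells, and those called in crel-/-relb-/- cells were lower. In relb-/- against WT cells 7 of 18 were higher and 1 lower (6.03% and 5.65% of all genes), among them Ifnb1, the interferon-β gene (1.98), the feedback inhibitor Usp18 (1.63), Irf7, which amplifies type I interferon production (1.60), and Stat2, a subunit of ISGF3 (0.88). Irf9, the DNA-binding subunit of ISGF3, was higher by 0.59. In crel-/-relb-/- against WT cells 0 of 18 were higher and 4 lower (7.65% and 7.74% of all genes): Irf1 (-1.02), Socs3 (-0.79), Nlrc5 (-0.48) and Jak2 (-0.32). Irf1 encodes a factor that binds ISRE-like elements, and it differed by -0.37 in relb-/- cells without being called. Ifng, which encodes interferon-γ, read 37.8 to 51.5 in relb-/-, 44.0 to 57.1 in crel-/-relb-/- and 49.1 to 54.0 in WT cells, near the median of all values. Irf7 read 116 to 846 in relb-/- and 34.2 to 517 in crel-/-relb-/- cells, against 40.6 to 231 in WT cells.

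The remaining family members, listed together with the related GTPases Mx1, Mx2 and Gvin1, were mostly dim. Those 3 are neither GBPs nor IRGs. Of 16 on the array 10 could be tested, and 6 could not, Gbp4, Gbp8, Gbp9, Gbp11, Gm4951 and Irgc1. In relb-/- against WT cells 4 of 10 were higher and none lower (6.03% and 5.65% of all genes): the dynamin-like antiviral GTPases Mx2 (1.38) and Mx1 (1.08), the giant GTPase Gvin1 (0.61) and Gm5431 (0.54). Of the GBP and IRG genes in this list, Gm5431 alone was therefore called there. In crel-/-relb-/- against WT cells Gbp7 (-0.46) and Gbp2b (-0.31) were lower and the IRG-related gene Irgq was higher (0.22), so 2 of 10 were lower and 1 higher, where 7.74% and 7.65% of all genes were. At 8 h against 0 h 4 of 10 were higher and 1 lower, Gvin1 (-0.89), against 15.0% and 15.9% of all genes. Tgtp1, an effector IRG, read 35.5 to 52.5 over all arrays. Among 19 partners of the GTPases in cell-autonomous defence, such as autophagy conjugation factors and inflammasome genes, 2 were higher and 1 lower in relb-/- cells, near the shares over all genes (6.03% and 5.65%). Those were Casp4, the caspase that senses cytosolic lipopolysaccharide (0.62), Trim21, an intracellular antibody receptor (0.49), and Atg5 (-0.35). In crel-/-relb-/- cells 1 of 19 was higher, the DNA sensor Aim2 (0.53), and 3 were lower, Trim21 (-0.40), Atg12 (-0.23) and Atg5 (-0.23), where 7.65% and 7.74% of all genes were.

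**Figure D4:**
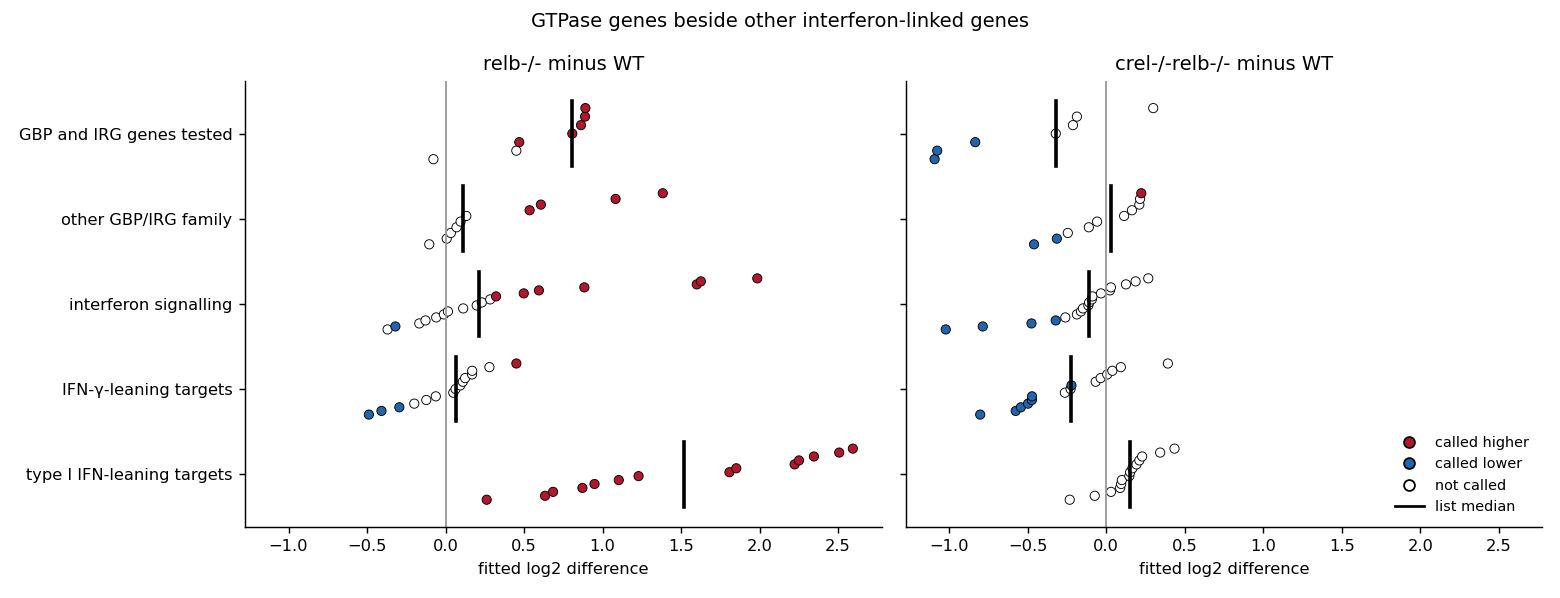
Fitted log2 difference from WT of the tested GTPase genes and of 4 other gene lists, relb-/- on the left and crel-/-relb-/- on the right; each point is a gene, red called higher, blue called lower, white not called, and the vertical bar is the list's median. The type I interferon-leaning targets have a median of 1.52 in relb-/- and 0.15 in crel-/-relb-/- cells, and the GTPases 0.81 and -0.32. The list of other GBP/IRG family genes also holds Mx1, Mx2 and Gvin1, which belong to neither family.

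Markers of other cell types also moved with genotype. Beside the counts below, 6.03% of all genes were called higher and 5.65% lower in relb-/- against WT cells. In crel-/-relb-/- against WT cells 7.65% were called higher and 7.74% lower. Among 7 tested genes that mark T and natural killer cells, 5 fell and 1 rose in relb-/- against WT cells, and 5 fell and 0 rose in crel-/-relb-/- against WT cells. Their summed intensity was 348 to 458 in relb-/-, 393 to 438 in crel-/-relb-/- and 580 to 747 in WT cells, with no overlap between either mutant and WT. The share of all genes without such overlap was not computed. Cd4, Cd8a, Gzma, Gzmb, Klrb1c and Ncr1 did not pass the filter. Of 4 tested plasmacytoid dendritic cell markers 0 were called in relb-/- cells and Tcf4 (-0.52) was lower in crel-/-relb-/- cells, with sums of 932 to 1623 in relb-/-, 529 to 1822 in crel-/-relb-/- and 652 to 1344 in WT cells, and Siglech read 41.5 to 55.4 throughout. Of 8 dendritic cell markers 0 were higher and 3 lower in relb-/- cells, namely Irf8 (-0.88), H2-Ab1 (-0.48) and Cd74 (-0.36). In crel-/-relb-/- cells 1 was higher, Itgax (0.33), and 5 were lower, led by Irf8 (-0.90), Ccr7 (-0.78), Irf4 (-0.38) and Batf3 (-0.31). Of 8 tested macrophage and monocyte markers 2 were higher and 4 lower in relb-/- cells, led by C1qb (-1.42) and C1qc (-1.38), and 3 were higher (Mertk 0.72, Mrc1 0.60, Adgre1 0.57) and 1 lower (Cd14 at -0.35) in crel-/-relb-/- cells. Their sums were 2810 to 8171 in relb-/-, 3521 to 10900 in crel-/-relb-/- and 3233 to 9551 in WT cells. Of 6 tested neutrophil markers 2 were higher (S100a9 0.86, S100a8 0.75) and 1 lower (Elane at -0.21) in relb-/- cells. The crel-/-relb-/- cells had 4 of the 6 higher than WT, namely Ngp (0.45), Ltf (1.03), S100a8 (1.50) and S100a9 (1.93), with 1 lower, Lcn2 (-0.29). The neutrophil sums were 1566 to 25820 in relb-/-, 2546 to 24430 in crel-/-relb-/- and 967 to 23140 in WT cells, and Mpo and Camp were not tested. Of 3 tested B cell markers 0 were called in either mutant, with sums of 117 to 147 in relb-/-, 134 to 176 in crel-/-relb-/- and 133 to 153 in WT cells. The part of the cells' makeup in the GTPase values was not tested, and in bulk RNA fewer expressing cells and less RNA per cell cannot be told apart.

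Over the 21 arrays the 7 genes, each read on its brightest probe, ran together, and Irgm1 ran least with the rest. The correlation of the dimmer Irgm1 probe ILMN_1234539, which gave other genotype differences, was not computed. Pearson's r of a gene with the mean of the other 6 was 0.97 for Irgm2, 0.93 for Igtp and Ifi47, 0.92 for Gbp5 and Gbp3, 0.86 for Gbp2 and 0.82 for Irgm1. With the mean of each condition taken out it was 0.97 for Igtp and Irgm2 and 0.53 for Irgm1, and the lowest pair was Gbp2 with Irgm1 at 0.05. These arrays share conditions and genotypes, so the values describe and carry no test. The genes most like the mean of the 7 over the 21 arrays were Pnp (r = 0.972), Parp14 (0.971), Tpst1 (0.969), Cmtr1 (0.962), Ifit2 (0.960), Rsad2 (0.958), Ifit3 (0.958), Stat2 (0.957), 9930111J21Rik2 (0.956) and Cmpk2 (0.955). With condition means taken out they were Asb13 (0.968), Gvin1 (0.961), Slfn1 (0.959), Nsmaf and Ly9 (both 0.957), Ifi35 (0.956), Tpst1 (0.954), Shfl (0.954), Ly6e (0.944) and 9930111J21Rik2 (0.943).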

How the data were processed

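Gene expression was measured on 21 Illumina mouse bead arrays from biotin-labelled cRNA, per the labels' protocols. The authors deposited normalized intensity values on a linear scale, and the array medians lay between 47.1 and 47.4. The normalization method and the background treatment are unknown from the labels. The log2 of the deposited intensities was analysed with no further normalization. A second table of unnormalized signals was not used, since its 21 columns match no sample label. Probes were named through the platform annotation, with symbols updated by Entrez identifier. A gene was tested if the 3rd highest of its 21 values exceeded the overall median (47.3), and its brightest passing probe stood for it, which left 10587 genes.

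Tests used limma 3.58.1 in R 4.3.3 (lmFit and eBayes with an intensity trend), two-sided, with Benjamini-Hochberg adjustment over the 10587 genes and calls at an adjusted p under 0.05. Genotype, time and agent effects came from 1 additive model over the 21 arrays (terms for genotype and for condition, 12 residual degrees of freedom), early and late effects from a genotype by late-time term (10), and agent effects on genotype from the 18 stimulated arrays (8). In each model the spread is the variation of genotype differences between conditions that its terms leave over. For a time or agent effect that is its variation between genotypes. Precision is limited by the number of arrays. The fit of crel-/-relb-/- against WT was tried on simulated data with known changes, independent noise and no condition effects. The other comparisons were not checked in that way.

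The 8 genes and all other lists were chosen with earlier results of these data known. Genes named from the other lists were a fixed set (Ifnb1, Ifng, Stat2, Irf1, Irf7 and Irf9, with another gene not reported here) and up to 4 called genes per direction with the largest differences, and those most like the 8 were the 10 with the highest Pearson r. Flt3, Tgtp1, Siglech and the untested genes were named outside that rule, with their values known. Windows before gene starts were taken from RefSeq (GRCm38.p6). The alternatives covered normalization, the dim-probe filter, the choice of probe, the intensity trend, an added 16 before log2, the array that lay apart, and each condition left out in turn.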

Additional observations from a re-analysis of the deposited data

How the results depend on the processing

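Of the 7 tested GTPases, the counts called in relb-/- against WT, in crel-/-relb-/- against WT, in crel-/-relb-/- against relb-/- and at 1, 8 and 24 h stayed within 1.5 times of the reported counts under each alternative normalization, filter, probe choice and trend setting that kept every condition. No fitted difference of a called gene changed sign. For CpG against Pam3CSK4, 0 of 7 were called without the intensity trend and 0 without the crel-/-relb-/- array at 24 h, instead of 2. For relb-/- against WT at 0 and 1 h, 1 was called instead of 0 with quantile normalization, with normexp, with the most variable probe and without that array. For crel-/-relb-/- against WT at 0 and 1 h, 2 were called instead of 1 with quantile normalization and with normexp. For relb-/- against WT at 8 and 24 h, 2 were called with the most variable probe and 0 without the trend, instead of 1. Leaving out 1 condition at a time gave 2 to 5 calls in relb-/- against WT, 2 to 4 in crel-/-relb-/- against WT, 6 in crel-/-relb-/- against relb-/-, 0 at 1 h, 5 to 7 at 8 h, 4 to 7 at 24 h and 0 to 3 between the agents. It gave 0 to 3 in relb-/- and 1 to 3 in crel-/-relb-/- against WT at 0 and 1 h. At 8 and 24 h it gave 0 to 5 in relb-/- against WT, 0 to 3 in crel-/-relb-/- against WT and 2 to 6 in crel-/-relb-/- against relb-/-. For the late response it gave 0 to 1 in crel-/-relb-/- against WT and 0 in relb-/- against WT. The lowest counts at 8 and 24 h came without a Pam3CSK4 condition for the last 2 of those comparisons, and the highest without CpG 8 h. Each such fit also had fewer arrays, and the causes of these shifts were not tested. Single-gene results kept their side of the threshold in 656 cases, 35 lost the call and 9 gained it.

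Counts over all genes moved by more than 1.5 times in some settings: from 118 to between 34 and 196 at 1 h, from 239 to between 51 and 294 between the agents, from 436 to between 124 and 693 (relb-/-) and from 713 to between 283 and 1021 (crel-/-relb-/-) against WT at 0 and 1 h, and from 720 to between 447 and 1066 (relb-/-) at 8 and 24 h. In crel-/-relb-/- against relb-/- at 8 and 24 h they went from 1564 to between 1017 and 1936. For the late response the counts were 1 to 26 instead of 18 (relb-/-) and 8 to 60 instead of 40 (crel-/-relb-/-). For the added 8 to 24 h change they were 1 to 8 instead of 1 (relb-/-) and 4 to 10 instead of 7 (crel-/-relb-/-), and 0 to 2 instead of 0 for the added agent effect in crel-/-relb-/- at 8 and 24 h. No paired analysis was possible because the labels give no replicate numbers, and the condition is already a term of each fit. Values near the median of all values limit what can be read for Iigp1 and Ifng, and no result above rests on a replicate within a condition.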
